A study of Mus musculus with 2 samples.

Results

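The 10 genes described here encode the liver's machinery for making glucose and for storing it as glycogen. They are Pck1, G6pc, Fbp1, Pcx, Ppargc1a, Klf15, Gys2, Pygl, Slc2a2 and Slc37a4, taken by symbol from 19938 genes measured on the arrays. Each was read from probe sets (called probes) annotated to that gene alone, and where a gene had more than 1, from the probe with the highest mean over both arrays. The 10 genes had 11 such probes, with 2 for Ppargc1a and 1 for each of the others.

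Liver RNA was compared between a pool labelled FHL2-/-, called the knockout-labelled pool, and a wild-type pool. FHL2 carries LIM domains and acts as a cofactor of several transcription factors. In each pool the submitters combined left-lobe RNA of 3 male mice aged 10 to 11 weeks, and all animals shared a hybrid Black Swiss/129-SV/J background. Each pool was hybridised to 1 Affymetrix array, so each group has n = 1, no test between genotypes can be made, and pooling hides the spread between mice. Values are log2 levels as deposited, and a difference is always the knockout-labelled minus the wild-type value. The array medians over all probes were 5.71 in the knockout-labelled and 5.76 in the wild-type pool. Fhl2 itself, on 1 probe, was at 5.33 in the knockout-labelled and 5.30 in the wild-type pool, below the level filter of 5.44. The exons that were deleted are not given in the labels, so this probe does not check the genotype.

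The liver releases glucose between meals from glycogen and from newly made glucose built out of lactate, amino acids and glycerol. Pyruvate carboxylase (Pcx) and phosphoenolpyruvate carboxykinase (Pck1) bypass the last step of glycolysis, and fructose bisphosphatase (Fbp1) reverses phosphofructokinase. Gluconeogenesis and glycogen breakdown meet at glucose 6-phosphate. The carrier Slc37a4 moves glucose 6-phosphate into the endoplasmic reticulum, G6pc removes its phosphate there, and the transporter Slc2a2 (GLUT2) carries glucose across the hepatocyte membrane. Glucagon acts through cyclic AMP and the factor CREB to raise transcription of Pck1, G6pc and the coactivator Ppargc1a, and insulin opposes this through FOXO1.

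The upstream sequences of the 3 genes with the largest positive differences (Pck1, G6pc and Fbp1) and of Ppargc1a, the lowest of the 10, are printed because hormone signals reach these genes through their promoters. They are the 250 bases before the annotated start, 5′ to 3′ on the gene's strand, from RefSeq on build GRCm38.p6. Pck1 lies at chr2:173152823-173153072 on the + strand, G6pc at chr11:101367466-101367715 on the + strand, Fbp1 at chr13:62888283-62888532 on the - strand and Ppargc1a at chr5:51567726-51567975 on the - strand. Capitals mark matches on either strand to the cyclic AMP response core TGACG, the forkhead core TGTTTAC bound by FOXO factors, the glucocorticoid receptor core TGTTCT, the KLF box CACCC and the TATA box TATAAA.
Pck1: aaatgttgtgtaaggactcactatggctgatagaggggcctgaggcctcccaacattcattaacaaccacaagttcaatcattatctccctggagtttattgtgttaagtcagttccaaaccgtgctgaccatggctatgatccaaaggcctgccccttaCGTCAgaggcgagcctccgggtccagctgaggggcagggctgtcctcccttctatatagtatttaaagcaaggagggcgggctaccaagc
G6pc: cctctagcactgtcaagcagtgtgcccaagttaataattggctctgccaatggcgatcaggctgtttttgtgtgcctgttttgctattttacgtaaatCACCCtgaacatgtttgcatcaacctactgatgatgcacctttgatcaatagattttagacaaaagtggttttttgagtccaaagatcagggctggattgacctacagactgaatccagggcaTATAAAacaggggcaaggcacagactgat
Fbp1: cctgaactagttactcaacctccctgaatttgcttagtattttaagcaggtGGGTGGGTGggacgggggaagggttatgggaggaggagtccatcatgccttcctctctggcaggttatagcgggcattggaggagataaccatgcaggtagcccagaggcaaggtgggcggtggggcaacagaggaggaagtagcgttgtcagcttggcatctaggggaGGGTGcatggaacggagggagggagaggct
Ppargc1a: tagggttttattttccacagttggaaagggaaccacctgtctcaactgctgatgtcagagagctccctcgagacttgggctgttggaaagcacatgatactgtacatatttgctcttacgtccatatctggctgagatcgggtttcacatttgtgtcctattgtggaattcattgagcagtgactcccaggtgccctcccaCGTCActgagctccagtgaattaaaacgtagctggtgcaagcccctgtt

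In the Pck1 sequence the capitals mark 1 cyclic AMP response core, read on the opposite strand at -90 to -86 from the start. In G6pc they mark a KLF box at -152 to -148 and a TATA box at -29 to -24. The 3 marked boxes of Fbp1 are all KLF boxes, and 2 of them overlap by 1 base. Ppargc1a carried 1 cyclic AMP response core at -49 to -45, again on the opposite strand, in the window of the 1 start that was matched.

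Over windows of 300 bases, which add the first 50 bases of the gene, 9 of the 10 genes matched, with 12 annotated starts in all. The cyclic AMP response core was in 6 of the 12 windows, those of Pck1, Ppargc1a, Klf15, Pygl and 2 of Slc37a4, and in 20.9% of 32544 promoters of the same length. These 2 windows of Slc37a4 overlap and share 1 such core and 1 KLF box. By gene, the cyclic AMP response core was in 5 of 9. The KLF box was in 10 of the 12 windows, in at least 1 of every matched gene but Ppargc1a, and in 57.7% of promoters. The TATA box was in 2 of the 12, those of G6pc and 1 start of Slc37a4, and in 13.6% of promoters. The forkhead core and the glucocorticoid receptor core were in 0 of the 12 windows, and in 3.66% and 18.9% of promoters. Genes with a cyclic AMP response core lay on both sides, from 0.42 for Pck1 to -0.07 for Ppargc1a. A match or its absence describes exact letters in a short window. It says nothing of binding, of variant sites or of sites outside the window.

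The enzymes and carriers of glucose output were higher in the knockout-labelled pool, and the regulators and the phosphorylase Pygl lay closer to 0. G6pc was 1.45-fold and Pck1 1.34-fold higher, and Fbp1 was 1.24-fold higher. The carriers Slc2a2 and Slc37a4 were 1.19-fold and 1.18-fold higher. Ppargc1a and Pygl were 1.05-fold and 1.02-fold lower.

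G6pc, the catalytic subunit of glucose 6-phosphatase, was at 12.16 in the knockout-labelled and 11.63 in the wild-type pool, a difference of 0.53. It was the largest difference among the 10, in place 100 from the highest of the 11924 genes past a filter on mean level (5.44, the 40th percentile over probes named to 1 gene). Pck1, which turns oxaloacetate into phosphoenolpyruvate in the cytosol, was at 12.32 in the knockout-labelled and 11.90 in the wild-type pool, a difference of 0.42 and place 241. Fbp1, which makes fructose 6-phosphate from fructose 1,6-bisphosphate, was at 11.25 in the knockout-labelled and 10.94 in the wild-type pool, a difference of 0.31 and place 648. These enzymes act at the steps that glycolysis cannot run backwards. Pcx, the mitochondrial enzyme that makes oxaloacetate from pyruvate, was at 10.72 in the knockout-labelled and 10.56 in the wild-type pool, a difference of 0.17. All 4 enzymes were higher in the knockout-labelled pool, with a median difference of 0.37.

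Slc2a2 was at 11.16 in the knockout-labelled and 10.91 in the wild-type pool, a difference of 0.25. Slc37a4 was at 9.82 in the knockout-labelled and 9.59 in the wild-type pool, a difference of 0.24. Both carriers that serve the last steps of glucose output thus lay on the same side as G6pc, with smaller differences.

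Gys2, the liver glycogen synthase, was at 10.64 in the knockout-labelled and 10.49 in the wild-type pool, a difference of 0.16, close to that of Pcx. Pygl, the liver phosphorylase that releases glucose 1-phosphate from glycogen, was at 11.54 in the knockout-labelled and 11.57 in the wild-type pool, a difference of -0.03. The sign of Pygl is not settled, since it was 0.01 with both arrays at a common median and 0.0040 after quantile normalization.

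The transcriptional regulators lay near 0. Ppargc1a, a coactivator of gluconeogenic and mitochondrial genes, was at 5.70 in the knockout-labelled and 5.77 in the wild-type pool, a difference of -0.07. Its other probe, at 5.24 in the knockout-labelled and 5.30 in the wild-type pool, differed by -0.06. The first of these probes was just above the level filter and the second below it, in the range where RMA compresses differences. Klf15, a Krüppel-like factor that promotes amino acid breakdown and gluconeogenesis in fasting, was at 9.75 in the knockout-labelled and 9.66 in the wild-type pool, a difference of 0.08.

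**Figure D1:**
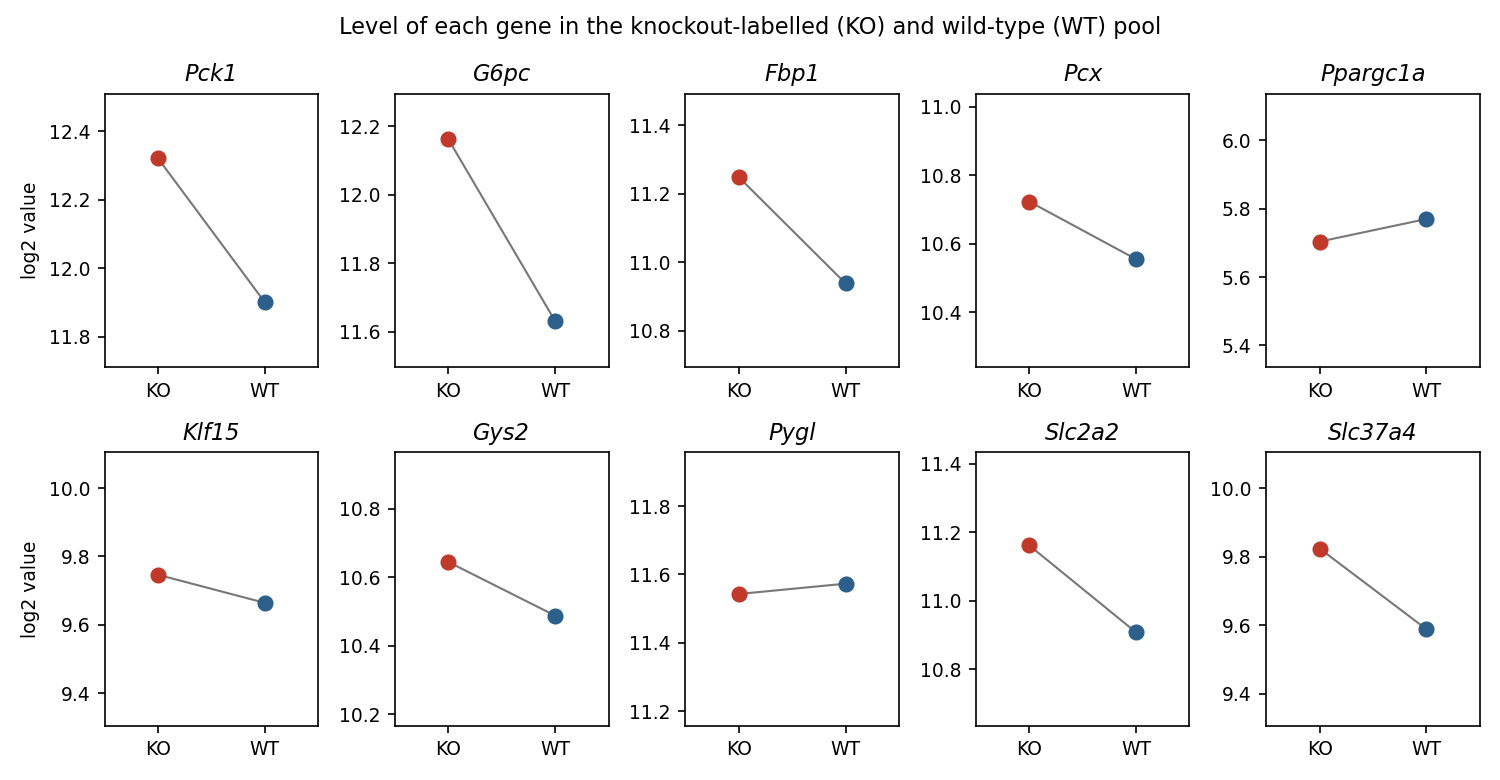
Level of each of the 10 genes (log2 value, vertical axis) in the knockout-labelled pool (KO, left, red) and the wild-type pool (WT, right, blue), 1 array each. Every panel spans the same log2 range around its own mean, so slopes can be compared, and levels of different genes cannot. The line slopes down to the wild-type pool for 8 of 10 genes, most for G6pc and Pck1.

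All 10 genes passed the level filter. Of the 10, 8 were above 0, against 59.5% of all 11924 genes past the filter, and their median difference was 0.20, against 0.04 for all genes. At least 1.5-fold higher (0.585 on the log2 scale) were 0 of the 10, against 0.621% of all genes. At least 1.5-fold lower were also 0 of the 10, against 0.335%. At the smaller step of 1.2-fold, 3 of the 10 were higher (G6pc, Pck1 and Fbp1), against 8.66% of all genes. At 1.2-fold lower there were 0 of the 10, against 6.16%. The genes were chosen with earlier results of these arrays known, so these counts describe them and support nothing further.

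With both arrays at a common median the 1.2-fold count was 5 of 10, with Slc2a2 and Slc37a4 added, against 12.7% of all genes. Among all genes past 1.5-fold this shift gave 90 higher and 30 lower, against 74 higher and 40 lower as reported. Under it 0 of the 10 genes reached 1.5-fold, and G6pc came to 0.57.

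Level matters for such counts, because dim genes scatter more. The genes past the filter were split into 10 equal bins of mean level, and 9 of the 10 genes fell in the highest bin, from 9.69 upwards, Klf15 and Slc37a4 only just. Ppargc1a fell in the lowest bin. In the highest bin 3.77% of 1193 genes were at least 1.2-fold higher, 2.18% at least 1.2-fold lower, and the median was 0.03. Within that bin G6pc was in place 5 from the highest, Pck1 in place 11, Fbp1 in place 28, Slc2a2 in place 53 and Slc37a4 in place 67. Pcx was in place 135 and Gys2 in place 157, Klf15 in place 396 and Pygl in place 865.

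**Figure D2:**
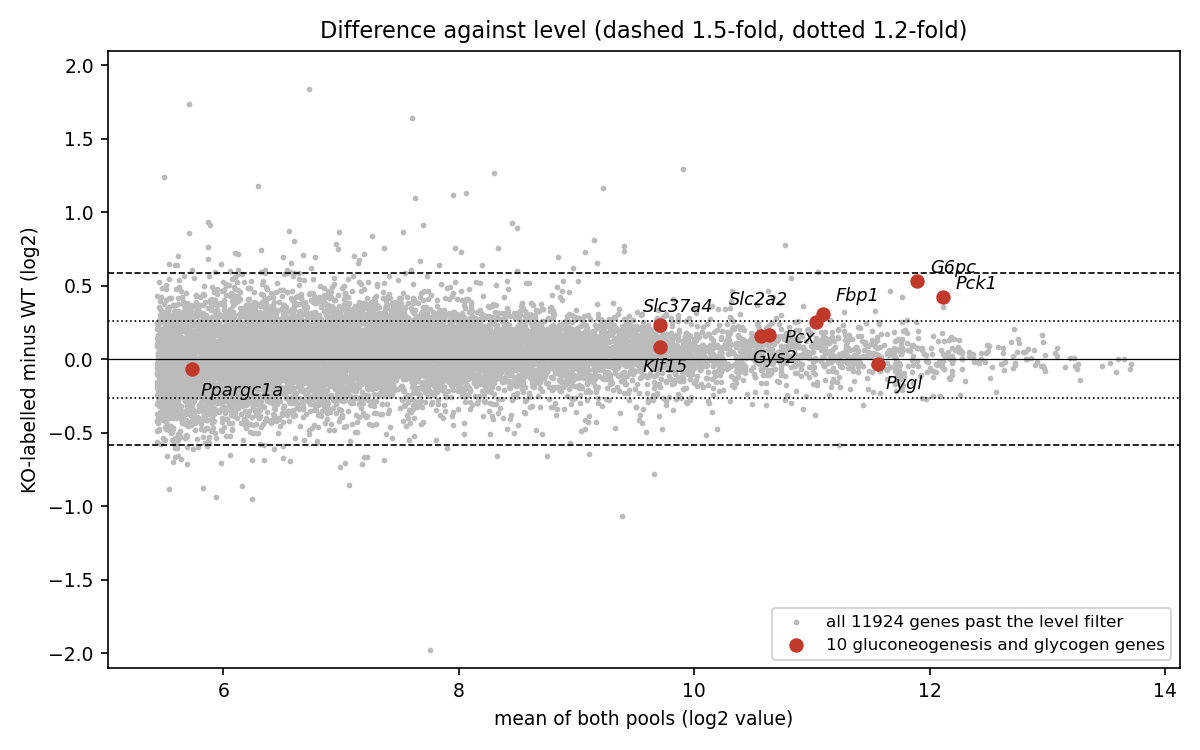
Difference between the pools (log2, vertical axis) against mean level (log2, horizontal axis) for 11924 genes past the level filter (grey) and the 10 genes described (red, named). Dashed lines mark 1.5-fold and dotted lines 1.2-fold. G6pc, Pck1 and Fbp1 lie above the upper dotted line, at 0.53, 0.42 and 0.31, where few genes of their level are found.

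The only repeat measurement on these arrays is that of several probes for 1 gene. Differences of such probes had an SD of 0.143 on the log2 scale over 660 genes, or 0.146 without probes of identical values. This covers probe error and neither animals nor hybridisations. Differences of 7 of the 10 genes were larger than 1 such SD, and those of G6pc, Pck1 and Fbp1 were larger than 2. The share of all genes past these marks was not counted. The median absolute difference of all genes was 0.1145, not far below the SD, so passing 1 SD is common. The 2 SD mark of 0.286 lies near the 1.2-fold mark of 0.263, past which 8.66% of all genes were higher and 6.16% lower. Klf15, Ppargc1a and Pygl were within 1 SD of 0. The SD is pooled over all levels past the filter. With 1 array per group it cannot tell for any of the 10 genes whether the genotypes differ.

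**Figure D3:**
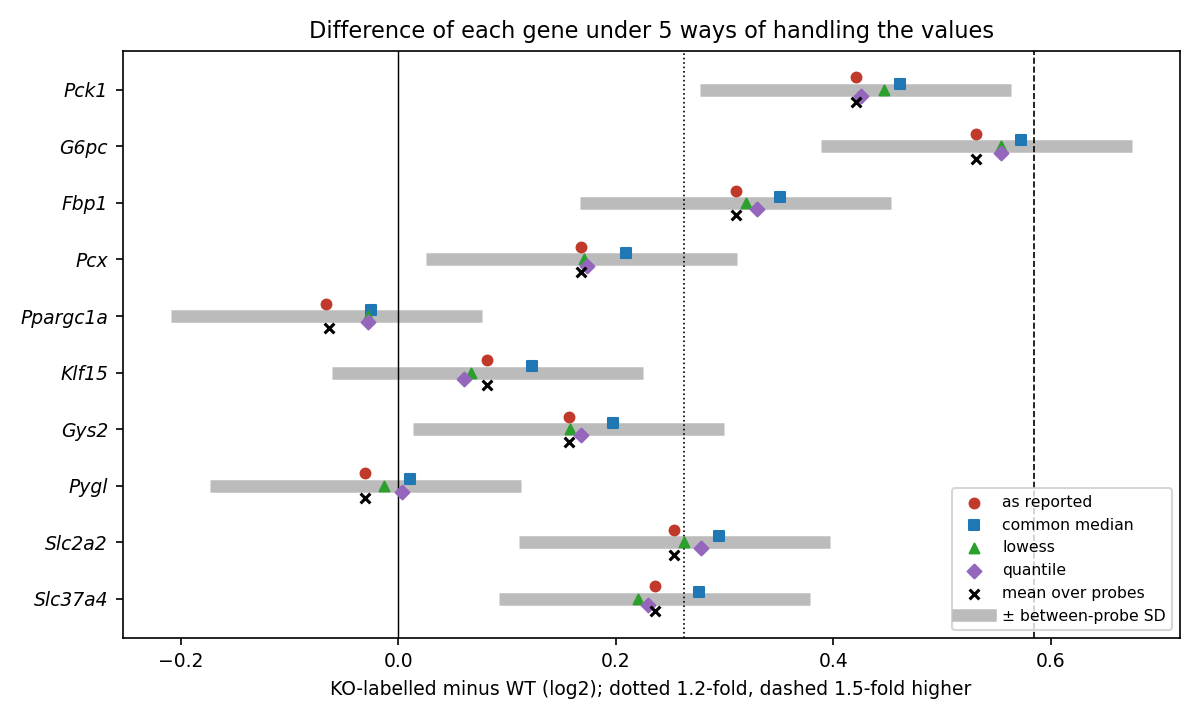
Difference between the pools (log2, horizontal axis) for each of the 10 genes as reported and under 4 other ways of handling the values (markers). Grey bars span 1 between-probe SD (0.143) on each side of the reported value. No marker reaches the dashed 1.5-fold line, and Pygl has markers on both sides of 0.

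The related lists are read against all genes past the filter, of which 59.5% were above 0, 0.621% at least 1.5-fold higher and 0.335% as much lower, with a median of 0.04. Of 23 genes that supply carbon to the pathway 20 were measured and 18 passed the filter. Of these, 15 of 18 were above 0, against 59.5% of all genes and 62.9% of the highest bin of level, and the median was 0.13. At 1.5-fold, 1 of the 18 was higher, against 0.621% of all genes, and 0 lower. Got1, the cytosolic aspartate aminotransferase that returns oxaloacetate carbon to the cytosol, was at 11.35 in the knockout-labelled and 10.76 in the wild-type pool, a difference of 0.59. Aqp9, the glycerol channel of hepatocytes, differed by 0.26, and lactate dehydrogenase Ldha by 0.22. At the low end were Pck2, the mitochondrial form of Pck1, at -0.05, malate dehydrogenase Mdh1 at -0.01 and the oxoglutarate carrier Slc25a11 at -0.0004.

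Of the enzymes shared by both directions of the pathway, 3 of 7 were measured. Tpi1 differed by 0.15 and Pgam1 by 0.09. Pgk1 was at -0.24 on 2 probes of identical values and at 0.03 on a further probe, so its sign depends on the probe.

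Another list held enzymes and regulators of glycolysis, which runs opposite to gluconeogenesis, and subunits and kinases of pyruvate dehydrogenase. Its genes do not all act in the same direction. Of 16 genes past the filter 9 were above 0, close to the 59.5% of all genes, and the median of 0.04 was that of all genes. At 1.5-fold 1 was higher, against 0.621% of all genes, and 0 lower. Pfkfb3, which makes the phosphofructokinase activator fructose 2,6-bisphosphate, was at 6.25 in the knockout-labelled and 5.48 in the wild-type pool, a difference of 0.77. Its wild-type level was close to the filter, so the size of this difference is uncertain. Pyruvate kinase Pklr of liver was at 0.26 and the pyruvate dehydrogenase kinase Pdk2 at 0.25. Lower in the knockout-labelled pool were hexokinase Hk1 at -0.30, the pyruvate kinase Pkm at -0.25 and Pdk4, a fasting-induced pyruvate dehydrogenase kinase, at -0.24. The value of Hk1 rests on a probe at 10.34 in the knockout-labelled and 10.64 in the wild-type pool. Its other probe was at 5.42 in the knockout-labelled and 5.55 in the wild-type pool, so the probes of Hk1 disagree in level and its difference is uncertain.

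Of other genes of glycogen metabolism, 26 passed the filter, with differences from -0.26 to 0.34 and a median of 0.05. Above 0 were 16 of the 26, close to the 59.5% of all genes, and 0 were 1.5-fold apart in either direction, against 0.621% higher and 0.335% lower of all genes. The glycogen-binding protein Stbd1 was at 0.34, laforin Epm2a at 0.30 and the liver phosphorylase kinase subunit Phka2 at 0.26. At the low end were the phosphatase targeting subunit Ppp1r3d at -0.26, the muscle glycogen synthase Gys1 at -0.15 and the muscle phosphorylase kinase subunit Phka1 at -0.14. Epm2a and Ppp1r3d were dim, at 5.63 and 5.62 in the knockout-labelled pool and 5.34 and 5.87 in the wild-type pool. The size of their differences is uncertain.

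Hormone signalling genes had a median of 0.10, with 16 of 23 above 0, against 59.5% of all genes. Most of them had mean levels from 6.95 to 8.79, in bins of level where 65.5% to 68.8% of genes were above 0. At 1.5-fold 0 were higher and 0 lower, against 0.621% and 0.335% of all genes. Creb1, which encodes CREB, was at 7.70 in the knockout-labelled and 7.28 in the wild-type pool, a difference of 0.42. Sik1, a kinase that is induced by CREB and restrains its coactivators, differed by 0.38, and the adenylyl cyclase Adcy6 by 0.29. On the other side, Foxo1 was at 7.43 in the knockout-labelled and 7.63 in the wild-type pool, a difference of -0.20. The insulin receptor substrate Irs2 differed by -0.17 and the kinase Akt1 by -0.12.

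Transcription factors and cofactors of gluconeogenic genes had a median of 0.04, that of all genes, with 16 of 21 above 0, against 59.5% of all genes. At least 1.5-fold higher were 3 of the 21, against 0.621% of all genes, and 0 were as much lower, against 0.335%. Onecut1, a liver-enriched homeobox factor, was at 8.94 in the knockout-labelled and 7.67 in the wild-type pool, a difference of 1.27. Pprc1, a relative of Ppargc1a, was at 6.69 in the knockout-labelled and 5.95 in the wild-type pool, a difference of 0.75. Nr4a1, a nuclear receptor induced by cyclic AMP, was at 6.31 in the knockout-labelled and 5.66 in the wild-type pool, a difference of 0.65. The lowest were Rora, a nuclear receptor of the clock, at -0.16, Ppargc1b, another relative of Ppargc1a, at -0.10 and Cited2 at -0.10.

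Paralogs of the 10 genes had a median of 0.05, with 15 of 24 above 0, close to the 59.5% of all genes. At least 1.5-fold higher was 1 of the 24 (Pprc1), against 0.621% of all genes, and 0 were as much lower, against 0.335%. Among Krüppel-like factors Klf10 was at 0.43, and Klf11 and Klf16 were at -0.44 and -0.20, with Klf15 between them. Among sugar carriers the fructose transporter Slc2a5 was at 0.33 and the insulin-responsive Slc2a4 at -0.22. Slc2a5 and Slc2a4 were dim, at 6.11 and 5.60 in the knockout-labelled pool and 5.78 and 5.82 in the wild-type pool.

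**Figure D4:**
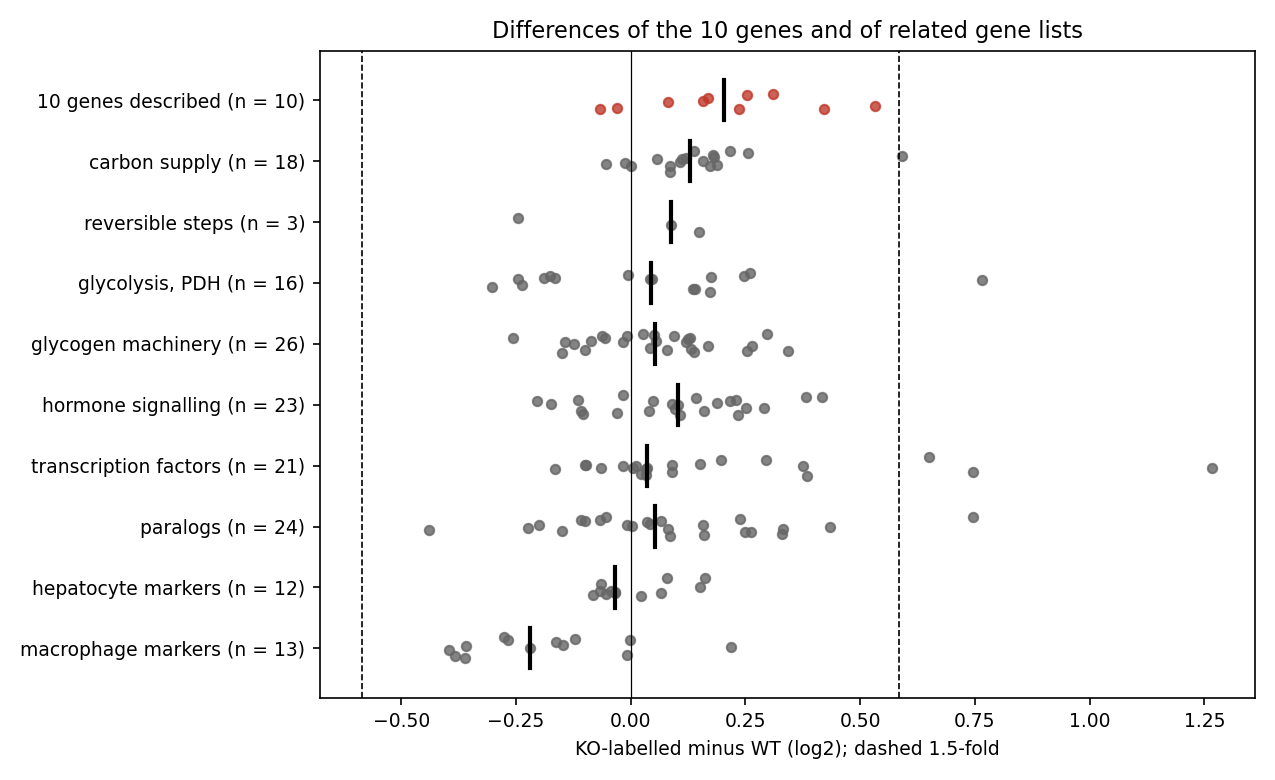
Differences between the pools (log2, horizontal axis) of the 10 genes (top row) and of related lists, 1 point per gene past the level filter, with the list's median as a black bar and 1.5-fold as dashed lines. Vertical scatter within a row only separates points. The medians are 0.20 for the 10 genes, 0.13 for carbon supply, -0.03 for hepatocyte markers and -0.22 for macrophage markers.

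The tissue label was checked with cell type markers. All 12 measured hepatocyte markers were bright, from 10.83 to 13.67 in the knockout-labelled and from 10.68 to 13.74 in the wild-type pool. Their median difference was -0.03, with 5 of 12 above 0. For all genes past the filter the median was 0.04 with 59.5% above 0, and 62.9% of the highest bin were above 0. The marker counts below are read against the 59.5%. The log2 of the summed linear values of the hepatocyte markers was 16.53 in the knockout-labelled and 16.55 in the wild-type pool. Kidney proximal tubule, another site of gluconeogenesis, was represented by 6 markers, all below the filter, from 4.12 to 5.34 in the knockout-labelled and from 4.10 to 5.31 in the wild-type pool. The islet genes Ins2, Gcg and Iapp were below the filter too, and Sst differed by -0.11. Macrophage markers were mostly lower, with 12 of 13 below 0 and a median of -0.22. Timd4 (-0.0025) and Cd5l (-0.0077) barely differed, and C1qc was higher, at 0.22. The summed level of all 13 macrophage markers was 11.75 in the knockout-labelled and 11.93 in the wild-type pool. Endothelial markers had a median of 0.12 (8 of 9 above 0), stellate cell markers 0.0010 (5 of 9) and bile duct markers 0.04 (2 of 4). Muscle markers had a median of -0.12 (1 of 5 above 0), fat cell markers -0.22 (1 of 3) and red blood cell markers 0.08 (1 of 2). The part of these cell types in the differences of the 10 genes was not tested. In bulk liver RNA, fewer cells of a type and less RNA per cell cannot be told apart.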

How the data were processed

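RNA of each pool (300 ng) was measured on 1 array with the GeneChip WT kits, per the labels' protocols. The deposited values are log2 levels per probe set. Per the submitters' processing notes the tools were RMA, Partek 6.4 and Affymetrix Expression Console 1.0, without stated roles. Their settings, like the genome build, are not stated in the labels. RMA sets arrays to a common distribution, which hides any change in total RNA, and compresses differences of dim transcripts. The deposited values were still not fully matched, with array medians of 5.71 in the knockout-labelled and 5.76 in the wild-type pool. No detection calls were used. Precision is limited by the number of arrays.

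From these values, with pandas 2.3.3 and statsmodels 0.14.6, differences were taken without further scaling. Of 28853 probes 21789 had 1 symbol in the platform annotation, 1621 several and 5443 none, and only the first were named. The 10 members had Entrez identifiers with the same symbol in the GRCm38.p6 reference table, and 0 probes joined a member to another gene. Further lists, 7 of pathways and paralogs, held 146 symbols, 133 of them measured, and 10 lists held cell type markers. Named were all members, Fhl2, and per pathway list the 3 highest and 3 lowest differences and any past 1.5-fold. Genes past the filter were counted at 1.5-fold and 1.2-fold. The members and lists were chosen with earlier results of these data known. Alternatives were a common median, a lowess fit of the difference on level (span 0.3) subtracted, quantile normalization, the mean over a gene's probes, and no filter or one at the 60th percentile. The 1.2-fold counts under these scalings, the bins of level and the SD without identical probes were added after seeing the data. The steps were tested on simulated data with changes of at least 1.5-fold and noise far below the between-probe SD. Smaller changes, like those of the 10 genes, were not simulated.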

Additional observations from a re-analysis of the deposited data

How the results depend on the processing

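No paired analysis was possible because each group has 1 array, and no replicate could be left out. Each of the 10 genes moved by at most 0.04 under a common median, lowess, quantile normalization and the mean over probes, less than the between-probe SD of 0.143. The common median adds the same 0.041 to every gene. The mean over probes can move only Ppargc1a, the 1 gene with 2 probes. These 2 alternatives therefore say little about the other genes. The direction was kept under these 4 alternatives by every one of the 10 but Pygl, whose difference ran from -0.03 to 0.01. The median of the 10 ran from 0.20 to 0.24. With 1.2-fold in place of 1.5-fold, 3 of the 10 were higher. Slc2a2 passed 1.2-fold under a common median (0.30) and quantile normalization (0.28), and Slc37a4 under a common median (0.28).

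Among all genes, dropping the level filter gave 153 higher and 133 lower at 1.5-fold, and with the filter at the 60th percentile 41 were higher and 14 lower, since other numbers of genes are counted. At that stricter filter 1.5-fold was passed by 0 glycolytic genes, 0 paralogs and 1 transcription factor (Onecut1), since Pfkfb3, Pprc1 and Nr4a1 fall below it. The medians of all 7 pathway and paralog lists stayed above 0 under the alternatives, as did that of all genes, from 0.0174 to 0.0812. After lowess the glycolytic list was at 0.0005, against 0.0226 for all genes. The hormone signalling list fell from 0.1031 as reported to 0.0579 after lowess and 0.0512 after quantile normalization. With 1 array per group the spread between mice is unknown, so differences of this size in pools cannot be set against it.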
